A study of Drosophila melanogaster with 21 samples.

Results

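Serpins are protease inhibitors, and 10 serpin genes of Drosophila melanogaster were followed here by name: Spn27A, Spn28Dc, Spn42Da, Spn43Aa, Spn55B, Spn77Ba, Spn88Ea, Spn88Eb, Spn100A and nec. They were taken from a list of inhibitors of hemolymph and immune cascades, with no measured value in the rule but with earlier results of these data known. All 10 were found among the 17737 genes of both expression tables. S2 cells, a hemocyte-derived line grown in culture, were transfected with double-stranded RNA, and polyadenylated RNA was sequenced after 4 days. For the RNA interference the paper's methods name S2[Cas9] cells, an S2 line that expresses the nuclease Cas9. In the first table, 3 libraries of cells treated against all isoforms of the transcriptional cofactor U-shaped (dsUsh) and 3 of cells treated against the nucleosome remodeller dMi-2 (dsMi-2) stood beside 3 control libraries treated against EGFP, which the fly genome does not encode (dsEGFP). A second table, normalised separately, held 4 libraries labelled as depleted of the isoform Ush-B alone (dsUsh-B) and 4 dsEGFP libraries of their own. Ush binds GATA factors and restrains blood cell differentiation, and dMi-2 is the ATPase of the dNuRD complex, with which Ush interacts.

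A serpin offers its target protease a reactive loop as bait, and the cleaved serpin then traps the protease in a covalent complex from which it is not released. In insect hemolymph, chains of clip-domain serine proteases carry signals of infection or injury along a pair of branches. In one the protease SPE cleaves Spätzle, the ligand of the Toll receptor. In the other, phenoloxidases are activated and melanin is deposited. Serpins set the threshold of both branches, and hemocytes and fat body are the main sources of the circulating proteins.

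Reads on genes per library numbered 21366051 to 26101822 for the first table and, for the Ush-B table, 46181614 to 59387417. Values below are normalised counts per gene, that is, reads divided by a size factor for each library, and fold changes are differences of log2(normalised count + 1). Transcripts of Mi-2 were at 4273 to 5417 in the dsEGFP libraries and 1125 to 1567 in the dsMi-2 libraries, a log2 fold change of -1.97 (SE 0.15, limma adjusted p = 6.93e-05). Those of ush were at 3929 to 5276 and 3341 to 4089 in dsEGFP and dsUsh, a difference of -0.31 (SE 0.13) that missed the threshold (limma adjusted p = 0.0978) and passed it when replicate numbers were blocked (0.00702). For Ush-B, ush was at 6411 to 10369 in the controls and 6464 to 9993 in the libraries labelled dsUsh-B. Counts per gene do not separate the isoforms, so that depletion could not be checked in these values. On Western blots, the paper reports Ush signals lost with dsRNA against all isoforms and the slower Ush band depleted with dsRNA against Ush-B. The direction of every Ush-B difference below rests on the column names alone. The study's own deposited comparison for Ush-B has the opposite sign to differences taken from these column names, and which is right was not settled here. The methods name 3 independent transfections for RNA-seq. Nothing says so of the 4 libraries per group of the Ush-B experiment, so what their spread measures is not known. In bulk RNA, fewer cells of a type and less RNA per cell cannot be told apart.

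Of the 10 serpins, 8 were measured and 2 were not. Spn43Aa had 0 reads in every library of both tables. For nec, the inhibitor that restrains Toll activation through the protease Persephone in the fly, 1 read was counted in all, in dsUsh-B replicate 3. The other 8 had a mean of at least 5 normalised counts in both tables and entered the tests, Spn88Eb in the first table only through its dsMi-2 libraries. At this depth no signal was detectable for Spn43Aa and next to none for nec, so neither was compared.

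Among the measured serpins the levels per kilobase of gene span ranged from 1.90 to 1780.0 normalised counts in control cells. The span includes introns, so these values order the genes only roughly. Spn88Ea was highest, at 1780.0 ± 138.5 normalised counts per kb (SD, n = 3) in the dsEGFP libraries of the first table. Spn27A followed at 1013 and Spn42Da at 537, and the ranges of these 3 genes did not overlap. Spn55B was at 389 per kb and Spn77Ba at 264, but Spn77Ba ranged from 104 to 471 and the pair could not be ordered. Spn28Dc was lower at 69.3, Spn100A lower again at 8.76, and Spn88Eb lowest at 1.90. In the controls of the Ush-B table the order was the same except that Spn77Ba, at 617 per kb with a range of 310.1 to 838, stood beside Spn55B at 594 and also overlapped Spn42Da (820.0 to 1144). After Ush depletion Spn55B (904 per kb) and Spn77Ba (849.5) were both above Spn27A (729.95) in mean level, though the ranges overlapped. After dMi-2 depletion Spn88Eb, at 161 per kb, was above Spn100A at 7.37.

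**Figure D1:**
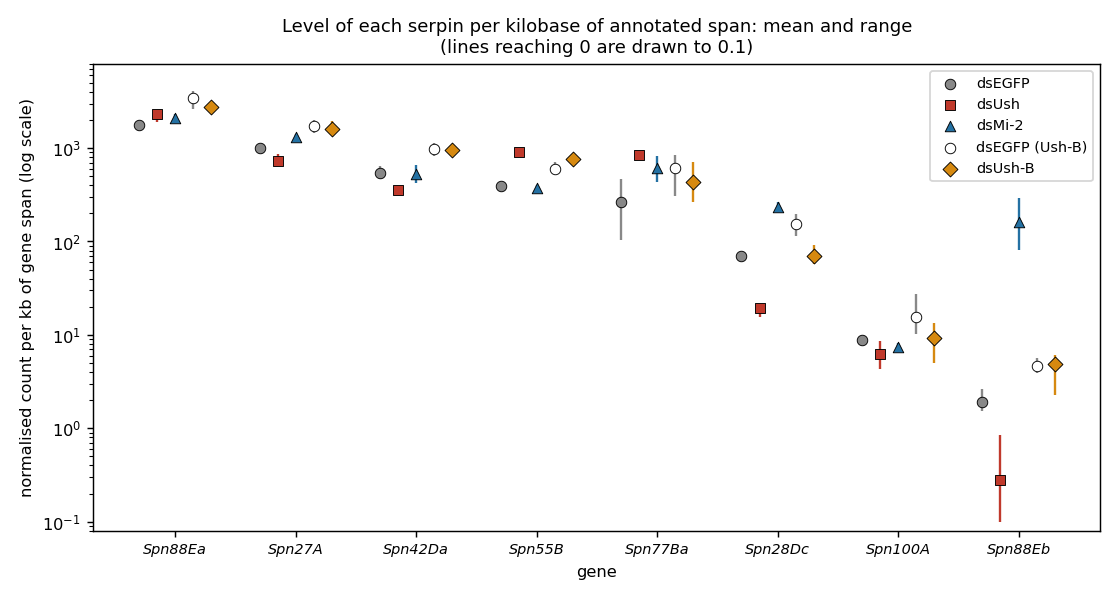
Mean normalised count per kilobase of annotated gene span (log axis) for the 8 measured serpins, with lines from the lowest to the highest library of each group. Spn88Ea leads in all 5 groups, and Spn88Eb moves from 1.90 per kb in dsEGFP to 161 per kb in dsMi-2.

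The responses of the serpins to the depletions differed from gene to gene. After Ush depletion Spn28Dc fell 3.56-fold while Spn55B and Spn77Ba rose, Spn55B by 2.33-fold. After dMi-2 depletion Spn28Dc rose 3.39-fold, the opposite direction, and Spn88Eb, close to undetected in control cells, rose by 82.4-fold in reads (49.3-fold without dsMi-2 replicate 2). With Ush-B as labelled, no serpin passed the test. Both depletions of the first table were set against the same 3 dsEGFP libraries, so a contrast between dsUsh and dsMi-2 libraries that uses no control is given beside them.

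**Figure D2:**
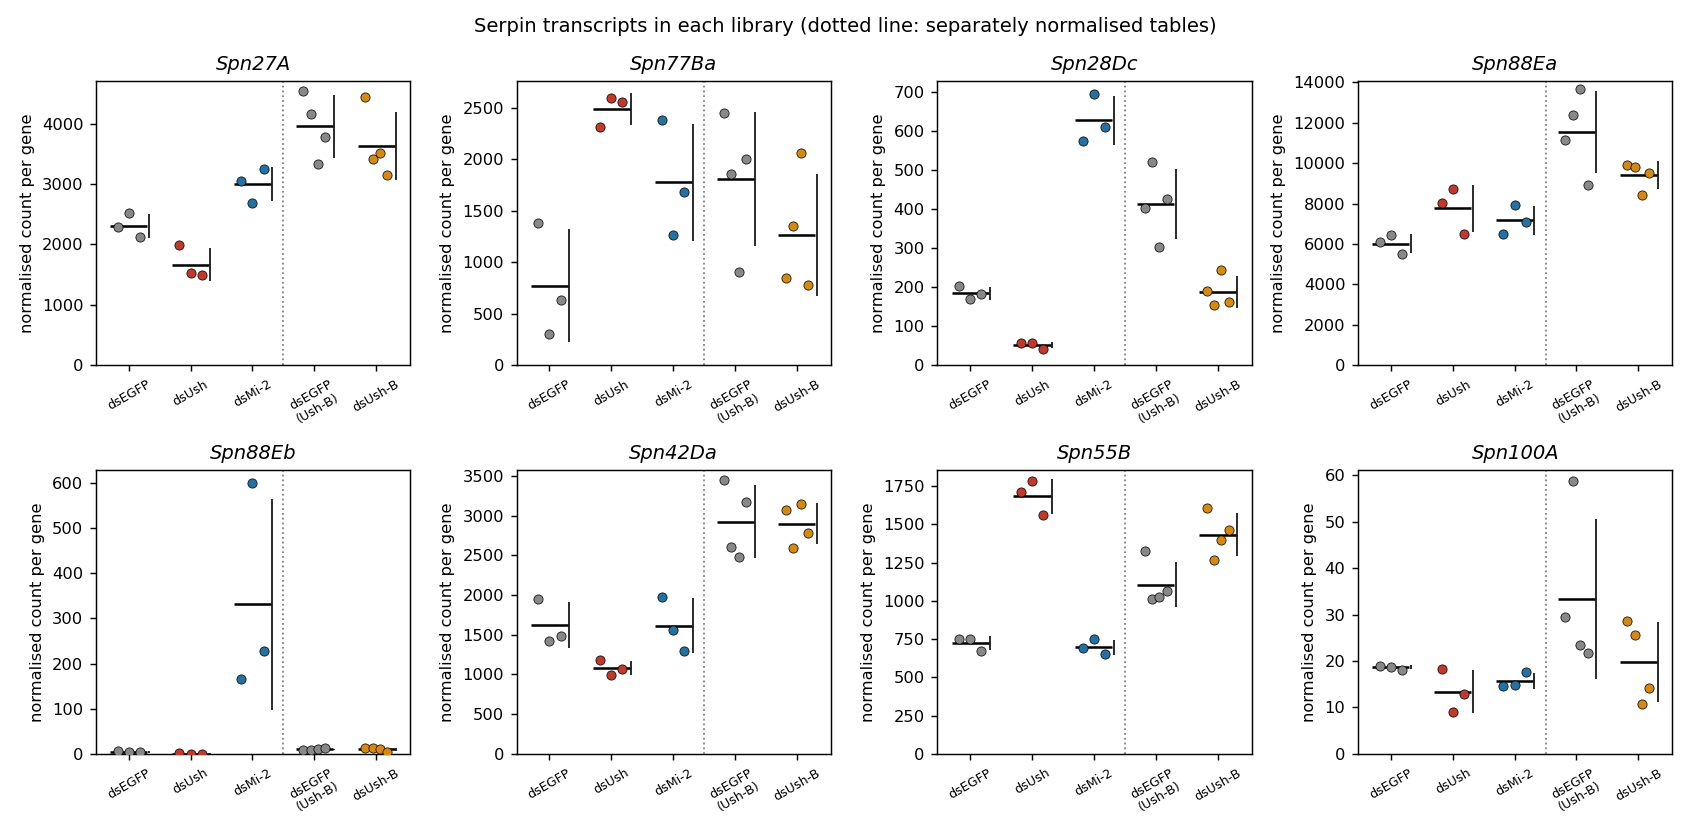
Normalised count per gene (linear axes from 0) of each measured serpin in every library, with the group mean (horizontal line) and SD (vertical line). The dotted line parts the tables, which were normalised separately. For Spn28Dc all dsUsh libraries (41.6 to 57.3) lie below and all dsMi-2 libraries (576 to 696) above the dsEGFP libraries (169.8 to 203).

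Spn27A, Spn28Dc and Spn77Ba are the serpins of this set known to limit melanisation. Spn28Dc, which acts on the release and activation of phenoloxidase in hemolymph, was counted at 203, 169.8 and 181 in the dsEGFP libraries. It was at 57.3, 55.7 and 41.6 in the dsUsh libraries and at 576, 696 and 611 in the dsMi-2 libraries. The 3 groups were fully apart, with dsUsh lowest and dsMi-2 highest. The log2 fold change was -1.83 (SE 0.18, limma adjusted p = 5.99e-05) after Ush depletion and 1.76 (SE 0.18, limma adjusted p = 0.000267) after dMi-2 depletion. Between the depletions the difference was -3.59 (SE 0.18, limma adjusted p = 1.32e-06), 12.0-fold lower in dsUsh. All 3 calls held in each of 20 alternative analyses.

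Separately, in the Ush-B experiment, Spn28Dc was at 404, 521, 303 and 426 in the controls and at 189, 153, 245 and 163 in the dsUsh-B libraries. Every library labelled dsUsh-B was thus below every control, which was so for 1.79% of the 9648 genes tested there, while the reverse order held for 2.23%. The log2 difference was -1.14 (95% interval -1.61 to -0.66), and the limma test missed the threshold over all genes (adjusted p = 0.301), whereas DESeq2 on the recovered reads passed it (adjusted p = 0.000295). Means were 171 in dsUsh-B and 463 in control within replicates 1 and 2, and 204 and 364 within replicates 3 and 4. As the groups did not overlap, the order within each subset was fixed in advance and adds no evidence.

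Spn27A, which restrains the protease that activates phenoloxidase and, in the embryo, the protease Easter upstream of Toll, was counted at 2293, 2518 and 2125 in dsEGFP. It was at 1985, 1525 and 1489.7 in dsUsh and at 3058, 2695 and 3253 in dsMi-2. No library of one group fell within the range of another, with dsUsh lowest and dsMi-2 highest as for Spn28Dc. Against control neither difference passed the limma test, at -0.48 (SE 0.13, adjusted p = 0.0214) for Ush and 0.38 (SE 0.13, adjusted p = 0.0934) for dMi-2, although DESeq2 called the Ush difference (adjusted p = 0.00889). Between the depletions Spn27A was lower in dsUsh by -0.86 on the log2 scale (SE 0.13, limma adjusted p = 0.000843). The Ush-B controls were at 4553, 4169, 3333 and 3775 and the dsUsh-B libraries at 4446, 3409.97, 3514 and 3152. These groups overlapped, with a difference of -0.13 (95% interval -0.42 to 0.17, limma adjusted p = 0.870). The gene overlaps cup and CG34310 in the annotation, so reads may be shared if strand was not used in counting, which is not stated.

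Spn77Ba, an inhibitor known for limiting melanisation in the larval tracheae, varied most of the serpins among the dsEGFP libraries of the first table. It was at 1379.8, 303 and 634 in dsEGFP, a 4.55-fold spread within the group. It was at 2312, 2591 and 2557 in dsUsh and at 2382, 1262 and 1681 in dsMi-2. All dsUsh libraries were above all controls, while dsMi-2 overlapped both other groups. The log2 fold change of 1.95 (SE 0.45) after Ush depletion only just passed the threshold (limma adjusted p = 0.00971), and it missed it in 13 of 20 alternatives, with adjusted p up to 0.0327 and fold changes between 1.41 and 2.50. The difference of 1.42 after dMi-2 depletion did not pass (limma adjusted p = 0.0673) but did so without dsEGFP replicate 1 (0.00520). Between the depletions it was 0.53 (95% interval -0.48 to 1.54, limma adjusted p = 0.384). In the Ush-B experiment the controls were at 2452, 1854, 908 and 2007 and the dsUsh-B libraries at 848, 1355, 2059.9 and 775, again a broad spread within each group, with no call (difference -0.54, limma adjusted p = 0.794). An antisense RNA, asRNA:CR43875, overlaps this gene.

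Spn88Ea and Spn88Eb lie next to each other in the genome and behaved differently. Spn88Ea, known in the fly as a negative regulator of Toll signalling, was counted at 6107, 6430.0 and 5508 in dsEGFP, at 8045, 8733 and 6497 in dsUsh, and at 6506, 7915 and 7105 in dsMi-2. Both depleted groups lay just above the controls. The differences of 0.36 (limma adjusted p = 0.0619) and 0.25 (limma adjusted p = 0.244) did not pass, and dsUsh and dsMi-2 libraries overlapped (0.11, limma adjusted p = 0.552). Its Ush-B controls were at 11173, 12412, 13663 and 8922 and the dsUsh-B libraries at 9897, 9804, 8411 and 9497, an overlap with a difference of -0.28 (limma adjusted p = 0.716). CG42542 overlaps Spn88Ea.

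Spn88Eb went from near the floor of detection to a clearly measured transcript. It was at 5.43, 3.13 and 3.20 in dsEGFP, at 1.74, 0 and 0 in dsUsh, and at 167, 599.8 and 227 in dsMi-2. Each dsMi-2 library was far above the highest control, and replicate 2 was well above the other dsMi-2 libraries. In reads the groups held 12, 2 and 1008 in all, so dsMi-2 was 82.4-fold above control (95% counting interval 46.9 to 159.9). Replicate 2 held 603 of the 1008 reads, and without it the ratio was 49.3 (27.9 to 96.1). The limma fold change was 5.89 (SE 0.57, adjusted p = 0.000228, between 5.03 and 6.39 over 20 alternatives, all past the threshold). The gene passed the filter on low values only through the group where it was high. Its place among the genes tested thus carries no weight, nor do its p-values for dMi-2 and the direct contrast. For Ush depletion the ratio of 0.169 rested on 2 against 12 reads (95% counting interval 0.0183 to 0.757) and limma gave no call (log2 difference -1.78, adjusted p = 0.0418). Between the depletions 1008 reads in dsMi-2 stood against 2 in dsUsh, a ratio of 489 (95% counting interval 135 to 4040, and 292 without dsMi-2 replicate 2). The limma difference of -7.67 (SE 0.57, adjusted p = 1.09e-05) depended on the pseudocount and ran from -8.97 to -5.71 over the alternatives. Few reads were counted in the Ush-B experiment, with 8.14, 7.96, 10.3 and 11.7 in control and 12.7, 11.8, 10.7 and 4.70 in dsUsh-B. That made 40 and 38 reads and a ratio of 1.02 (95% counting interval 0.639 to 1.64). Counting intervals cover counting error only.

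Spn42Da encodes several isoforms, among them an inhibitor of furin-type proprotein convertases of the secretory pathway. It was counted at 1951, 1426 and 1491 in dsEGFP, at 1181, 999 and 1063 in dsUsh, and at 1982, 1564 and 1292 in dsMi-2. The dsUsh libraries were the lowest of all, and control and dsMi-2 overlapped. After Ush depletion the difference was -0.58 (SE 0.17, limma adjusted p = 0.0315), past the threshold only with the replicate block (0.00225), and the contrast with dsMi-2 (-0.56, limma adjusted p = 0.0297) likewise passed only with the block (0.00212). After dMi-2 depletion it was -0.02 (95% interval -0.40 to 0.37, limma adjusted p = 0.969). Its Ush-B controls stood at 3458, 2602, 2478 and 3171 and the dsUsh-B libraries at 3079.5, 2595, 3148 and 2785, with a difference of -0.00 (limma adjusted p = 0.998). Counts per gene add its isoforms together, and asRNA:CR44169 overlaps it.

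Spn55B rose after Ush depletion and not after dMi-2 depletion, a difference that the direct contrast also gave. Its counts were 754, 748 and 671 in dsEGFP, 1713, 1784 and 1559 in dsUsh, and 692, 748 and 650.2 in dsMi-2. All dsUsh libraries were far above the others, and control and dsMi-2 overlapped. The log2 fold change of 1.22 (SE 0.10, limma adjusted p = 2.70e-05), from 724 ± 46.3 to 1685 ± 115 (SD, n = 3 each), held in all 20 alternatives. For dMi-2 the difference was -0.06 (95% interval -0.29 to 0.18, limma adjusted p = 0.794), and for dsUsh against dsMi-2 it was 1.27 (SE 0.10, limma adjusted p = 1.77e-05). For Ush-B the controls were at 1323, 1013, 1028 and 1063 and the dsUsh-B libraries at 1606, 1266, 1399 and 1463. Only control replicate 1 reached into the dsUsh-B range, and the difference of 0.38 did not pass (limma adjusted p = 0.570).

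Spn100A was near the low end of detection. It was at 19.0, 18.8 and 18.1 in dsEGFP, at 18.2, 9.09 and 12.8 in dsUsh, and at 14.5, 14.9 and 17.5 in dsMi-2. With Ush-B it was at 29.5, 58.7, 23.3 and 21.6 in control and at 28.5, 25.5, 10.7 and 14.1 in dsUsh-B. The dsMi-2 libraries were all just below the controls, and the other groups overlapped. No comparison passed, with limma adjusted p-values of 0.274, 0.704, 0.776 and 0.561 for Ush, dMi-2, Ush-B and the direct contrast.

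**Figure D3:**
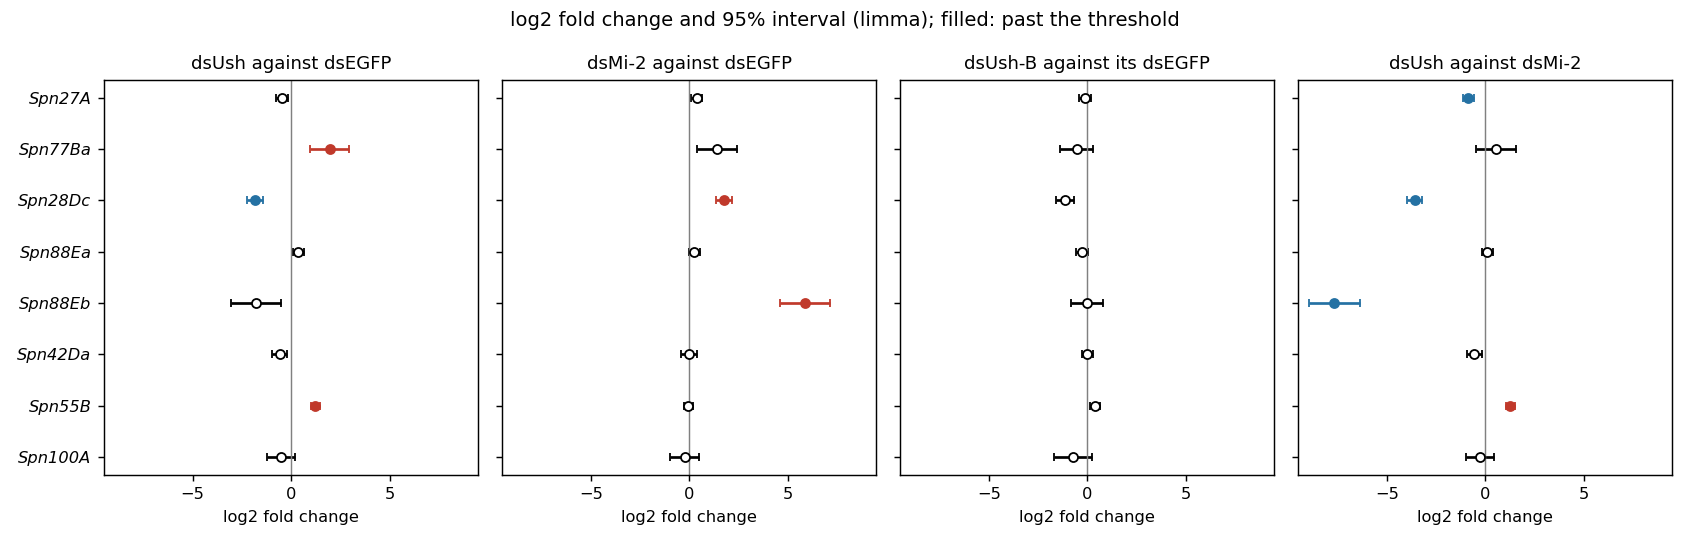
log2 fold change and 95% interval (limma) of the 8 measured serpins in 4 comparisons, with filled points for differences past the threshold. Spn28Dc lies at -1.83 for dsUsh and 1.76 for dsMi-2, and no point is filled for dsUsh-B.

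Counted over the set, Ush depletion moved 3 of the 8 measured serpins past the threshold of an adjusted p of 0.01, 2 higher and 1 lower, beside 17.2% of all 9132 genes tested (limma), 12.3% higher and 4.84% lower. The groups did not overlap for 7 of 8, beside 43.4% of all genes. The median log2 difference of the serpins was -0.49, against -0.01 over all genes. dMi-2 depletion moved 2 of 8, both higher, beside 6.29% of all genes (4.34% higher and 1.95% lower), with 5 of 8 not overlapping beside 31.9%, and a median of 0.31 against -0.01. In the direct contrast 4 of 8 passed, 1 higher and 3 lower in dsUsh, beside 22.8% (14.5% higher and 8.31% lower), with 5 of 8 not overlapping beside 52.1%. For Ush-B 0 of 8 passed at an adjusted p of 0.05 in limma, beside 0.0104% of 9648 genes (0.0104% higher and 0% lower). There 2 of 8 had an unadjusted p under 0.05, beside 7.09% of all genes, edgeR called 0 and DESeq2 called 1, which was Spn28Dc. Groups did not overlap for 1 of 8, again Spn28Dc, beside 4.02%. The median was -0.20, against -0.00 over all genes. Spn88Eb is among the calls for dMi-2 and the direct contrast, and entered only through dsMi-2, so its part in those counts carries no weight. With 8 genes these counts describe the set and support no statement on serpins as a class.

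Markers of blood cells differed between the groups as well, and not in one direction. The summed level of 8 hemocyte markers was 4656 to 5506 in dsEGFP, 2897 to 3282 in dsUsh and 5997 to 8543 in dsMi-2. In dsEGFP most of the sum was srp, the hemocyte GATA factor. The higher sum in dsMi-2 came from the collagen genes Col4a1 and vkg, which rose (log2 fold changes 2.20 and 1.87, limma adjusted p = 0.00265 and 0.00130). In fits that left out 1 library Col4a1 passed in 5 of 9 and vkg in 9 of 9. Meanwhile eater, a phagocytic receptor, fell by 3.77 and srp and Pxn gave -0.05 and -0.17. Over the 7 markers tested 2 rose and 1 fell after dMi-2 depletion, beside 4.34% and 1.95% of all genes, with a median of -0.05. After Ush depletion 3 fell (eater, Col4a1 and vkg) and He rose (3.34), beside 4.84% and 12.3% of all genes. The median was -1.67. The call for He held in 4 of 9 fits that left out 1 library, and its dsEGFP mean was 3.85. There srp and Pxn were lower without passing (-0.49 and -0.68, limma adjusted p = 0.0189 and 0.0638). With the replicate block 5 markers were called lower, and in DESeq2 4. He was also higher after dMi-2 depletion, without passing (3.25, limma adjusted p = 0.0156). Hml, a further hemocyte marker, was lower after Ush and dMi-2 depletion, without passing (-1.67 and -1.58, limma adjusted p = 0.0191 and 0.0440). In the Ush-B experiment the sum was 10811 to 16768 in control and 8414 to 9270 in dsUsh-B, with 0 of 7 past the threshold in limma, 3 at an unadjusted p under 0.05, 0 in edgeR and 2 in DESeq2. NimC1, a defining receptor of plasmatocytes, never exceeded 6.11. Lamellocyte markers, nearly all PPO3, were at 369 to 477, 448 to 660.2 and 541 to 874 in dsEGFP, dsUsh and dsMi-2. The other marker in that sum, atilla, was at 0 in every dsEGFP library and at 5.34 to 19.3 in dsUsh (30 reads). In dsMi-2 it was at 0 to 1.94, and its mean was too low for the tests. Crystal cell markers summed to between 2.92 and 73.9 in the first table. Within them lz, the crystal cell transcription factor, was at 0, 1.04 and 0 in dsEGFP and 5.21, 55.7 and 5.34 in dsUsh. Limma gave no call (adjusted p = 0.0188) and the replicate block a call (0.00208). However, lz passed the filter on low values only through dsUsh, with 49 of 60 dsUsh reads in a single library, so these p-values carry no weight. PPO1 and PPO2, the other crystal cell markers, had lower means in dsUsh than in dsEGFP (12.0 against 17.6 and 2.38 against 9.16), with overlapping groups. Fat body markers were at or under 6.82. In the Ush-B experiment lamellocyte markers were at 145 to 808 in control and 112 to 829 in dsUsh-B, and fat body markers at or under 10.7. The part of these differences in the serpin values was not tested.

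The rest of the serpin family was mostly silent. Of 19 further serpin genes, 18 were in the tables and 6 were measured well enough in the first table, 7 in the Ush-B table. After Ush depletion 1 of the 6 rose and after dMi-2 depletion 2 did, beside 12.3% and 4.34% of all genes. Spn31A rose after both depletions, from 119.6 ± 37.5 (SD, n = 3) to 680.4 ± 47.3 in dsUsh (log2 fold change 2.54, SE 0.20, limma adjusted p = 1.55e-05) and to 571 ± 41.4 in dsMi-2 (2.29, limma adjusted p = 0.000156). These share their controls. Spn42De rose after dMi-2 depletion from 34.3 ± 8.46 to 100.1 ± 13.5 (1.54, limma adjusted p = 0.00290), and passed in 5 of 9 fits that left out 1 library. In the direct contrast Spn42Dc was higher (1.09, limma adjusted p = 0.00980) and Spn42De lower (-1.01, limma adjusted p = 0.00984) in dsUsh, past the threshold in 3 and 2 of 9 such fits. The medians over the measured genes were 0.59 for Ush, 0.01 for dMi-2, -0.01 for Ush-B and 0.32 for the direct contrast, against -0.01, -0.01, -0.00 and -0.01 over all genes. With the replicate block Spn42Dc also passed after Ush depletion (0.65, limma adjusted p = 0.00397).

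The proteases that serpins restrain were a second comparison. Of 13 Toll cascade proteases, 12 were in the tables and 6 were measured. After Ush depletion 3 rose and 1 fell, beside 12.3% and 4.84% of all genes, with a median of 1.33 against -0.01. modSP, which starts the cascade downstream of pattern recognition, went from 7.20 ± 4.44 to 696 ± 108 (log2 fold change 6.60, SE 0.45, limma adjusted p = 7.24e-06). ea, the protease that cleaves Spätzle in the embryo, was at 11.8, 1.04 and 0 in dsEGFP and at 79.0, 817 and 217 in dsUsh, a rise that varied between libraries (6.35, SE 1.06, limma adjusted p = 0.00170). grass, a clip-domain protease of the same cascade, rose by 2.51 (SE 0.36, limma adjusted p = 0.000691), whereas ndl, which acts at the top of the embryonic cascade, fell by 1.04 (SE 0.16, limma adjusted p = 0.00111). Each of these calls held in 9 of 9 fits that left out 1 library. After dMi-2 depletion 0 of the 6 passed in limma, with 3 at an unadjusted p under 0.05, 0 calls in edgeR and 2 in DESeq2, and with the replicate block grass passed (1.43, limma adjusted p = 0.000435). Between the depletions modSP was higher in dsUsh (4.98, limma adjusted p = 3.39e-05) and ndl lower (-1.14, limma adjusted p = 0.000515), and grass was higher with the block alone (1.08, limma adjusted p = 0.000583).

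Of 5 melanisation proteases and phenoloxidases 3 were measured. Sp7, a protease that activates prophenoloxidase, rose after dMi-2 depletion from 704 ± 80.8 to 1952 ± 390.2 (1.46, SE 0.20, limma adjusted p = 0.00148). It was lower in dsUsh than in dsMi-2 by a log2 difference of -1.55 (limma adjusted p = 0.000305), and after Ush depletion 0 of 3 passed in limma, with 0 at an unadjusted p under 0.05 and 0 calls in edgeR and DESeq2. With the replicate block PPO3, a phenoloxidase, also passed after dMi-2 depletion (0.70, limma adjusted p = 0.00130) and in the direct contrast (-0.37, limma adjusted p = 0.00972). Sp7 and Spn28Dc, a protease and an inhibitor of the same branch, were thus both higher after dMi-2 depletion.

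Among 6 genes for recognition, ligand and receptor of Toll, PGRP-SA, a receptor for bacterial peptidoglycan, rose after Ush depletion (1.80, SE 0.29, limma adjusted p = 0.00137) and spz, which encodes the ligand Spätzle, fell by 1.90 (SE 0.34, limma adjusted p = 0.00240), a call that held in 7 of 9 fits that left out 1 library. These 2 of 6 stand beside 17.2% of all genes. GNBP3, a recognition protein for fungal glucans, missed the threshold in the main fit. It passed with the block (2.86, limma adjusted p = 0.00348), in DESeq2 and in 2 of 9 fits that left out 1 library. After dMi-2 depletion 0 of 6 passed in limma, with 2 at an unadjusted p under 0.05 and 0 calls in edgeR and DESeq2. In the direct contrast PGRP-SA was higher (1.91, limma adjusted p = 0.000767) and spz lower (-2.24, limma adjusted p = 0.000749) in dsUsh. The 3 proprotein convertase genes, the targets that Spn42Da is known for, had 0 calls in limma and edgeR in all 4 comparisons. Unadjusted p-values under 0.05 were seen for 1, 2, 0 and 1 of them for Ush, dMi-2, Ush-B and the direct contrast, and DESeq2 called 0, 1, 0 and 1. With the replicate block amon was lower after Ush depletion (-1.96, limma adjusted p = 0.00802), and Fur2 was lower after dMi-2 depletion (-0.54, limma adjusted p = 0.00215) and higher in dsUsh than in dsMi-2 (0.47, limma adjusted p = 0.00172). For Ush-B none of these lists had a call in limma.

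**Figure D4:**
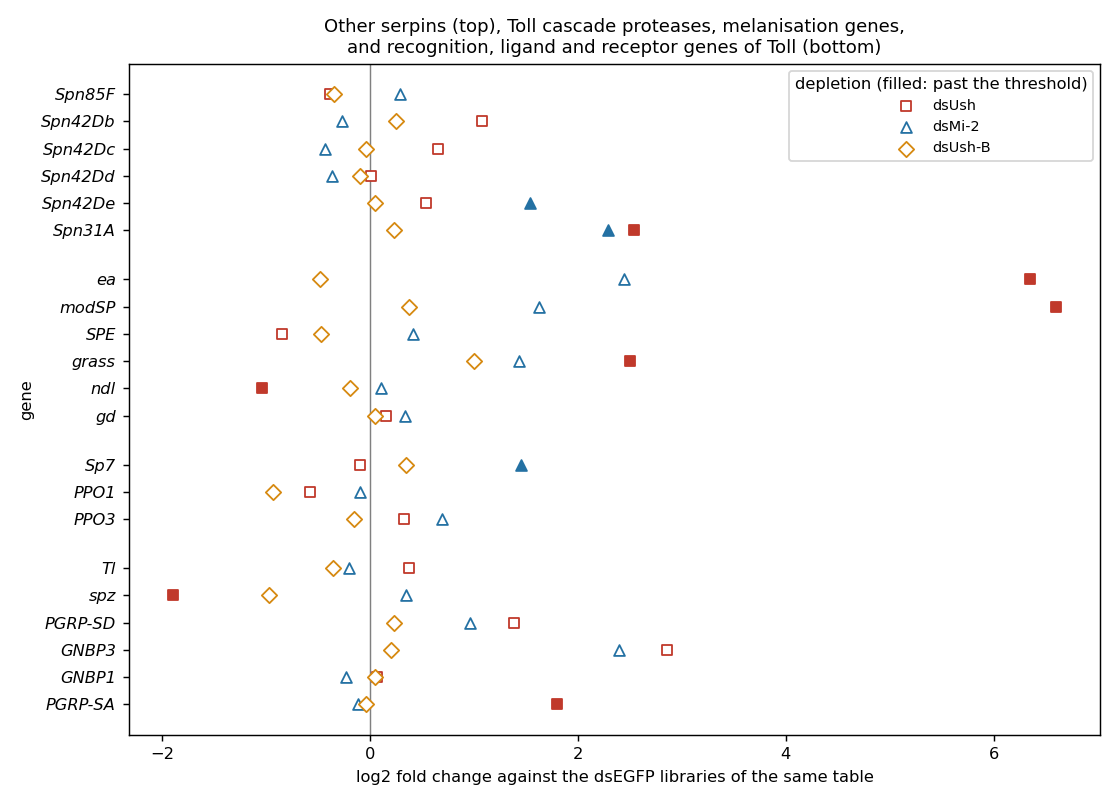
log2 fold change against the dsEGFP libraries of the same table for the measured genes of 4 lists, with filled symbols for differences past the threshold in limma. modSP (6.60) and ea (6.35) stand far to the right for dsUsh, spz (-1.90) lies to the left, and no dsUsh-B symbol is filled.

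For the 6 serpins with a mean of at least 50 in both tables, the gene with the most similar pattern among 6998 was sought by Pearson r over the 9 libraries of the first table. The genes found were yem for Spn27A (r = 0.979), CG42327 for Spn28Dc (0.996), Sf3b3 for Spn42Da (0.966), CG12065 for Spn55B (0.995), CG1494 for Spn77Ba (0.975) and CG9911 for Spn88Ea (0.964). As the best of many over few libraries, such values are high by choice. Over the 8 libraries of the Ush-B table, which took no part in the choice, r was 0.174, 0.396, 0.128, 0.115, -0.171 and 0.519 in the same order. The likeness of the first table was thus much weaker in the second for every one of them.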

How the data were processed

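RNA-seq signal values were deposited as normalised counts: the authors aligned single reads of a stranded mRNA library with STAR, counted them per gene with featureCounts (1.6.2 per the labels) and divided by DESeq2 size factors (version 2.11.40.2 per the labels). Genome build, annotation and use of strand in counting for RNA-seq are not given in the sources used here. Whole reads were recovered from the steps of the values. Tables of the authors' own comparisons hold fold changes and p-values and entered no test. The ChIP-seq was not analysed here.

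Differences were tested with limma 3.58.1 (R 4.3.3) on log2(normalised count + 1), with eBayes trend, two-sided, for genes with a mean of at least 5, with Benjamini-Hochberg adjustment over all genes tested. The first table was fitted as 9 libraries and the Ush-B table as 8. Thresholds were adjusted p of 0.01 (Ush, dMi-2, direct contrast) and 0.05 (Ush-B). Alternatives changed the pseudocount (0.5 or 5), filter (none or 20), scaling, moderation, block, groups in the fit and threshold, used edgeR 4.0.16 or DESeq2 1.42.0 on recovered reads, or left out each library. The procedure was tested on simulated data. Same-numbered libraries of the first table deviated together (r 0.239 to 0.569 in 9 of 9 pairs, other pairs -0.413 to 0.0049). The main fits nevertheless held no term for this pairing, which entered only through the replicate block among the alternatives. Limma values given without mention of the block thus ignore it.

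All members are named. Genes of other lists are named where they passed a threshold. Those past it with the block but not in the main fit, and single cell type markers, were named after their values were seen. The most similar gene was the one of highest r. Members and lists were chosen with earlier results of these data known. Gene spans and overlaps come from a RefSeq gene table. Spn76A and sphe were not analysed here.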

Additional observations from a re-analysis of the deposited data

Results flagged for a closer look

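In the Ush-B table, control replicate 1 stood apart for Spn55B, at 1323 normalised counts against 1063 in the nearest of the other 3 controls, a gap of 0.840 of the group's range that is past Dixon's 95% limit for 4 samples. Of 16 groups of 4 examined this was the only one past that limit, and chance passes about 1 in 20.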

How the results depend on the processing

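Of 626 alternative values of single serpins, 596 kept direction and call, 13 lost the call (all Spn77Ba after Ush depletion), 6 gained one and 11 changed sign without a call. Signs changed only for differences near 0. Leaving out 1 library moved Spn42Da between -0.18 and 0.13 for dMi-2 (above 0 without dsEGFP replicate 1 or dsMi-2 replicate 3) and between -0.079 and 0.081 for Ush-B (above 0 without control replicate 1 or 4 or dsUsh-B replicate 2 or 4). Spn88Eb in Ush-B moved between -0.13 and 0.29 (above 0 without control replicate 3 or 4 or dsUsh-B replicate 4), and was 0.014 with pseudocount 5 and 0.051 in edgeR. With the replicate block, genes past the threshold went from 1567 to 2601 for Ush, 574 to 1187 for dMi-2, 2082 to 3231 for the direct contrast and 1 to 0 for Ush-B, and serpins from 3 to 4, 2 to 2, 4 to 5 and 0 to 0. In the Ush-B table the same-numbered libraries correlated at -0.0486 to 0.66 and the other pairs at -0.607 to 0.762. Replicates 3 and 4 went together crosswise there. Control 4 with dsUsh-B 3 gave 0.762 and control 3 with dsUsh-B 4 gave 0.5165. By number, replicate 3 gave -0.0486 and replicate 4 gave 0.1375. The block by replicate number did not follow this likeness, so its counts for Ush-B decide little. At the other threshold the genes were 2679, 1275, 3345 and 0, and 6 serpins passed for Ush. DESeq2 called 1094 genes for dMi-2, and 91 genes and 1 serpin for Ush-B. Leaving out 1 library gave 1008 to 1395 genes for Ush, 292 to 587 for dMi-2, 1387 to 2183 for the direct contrast and 0 to 4 for Ush-B, the lowest for Ush and the direct contrast being without dsUsh replicate 3 and those more than 1.5 times below the count for dMi-2 without dsEGFP replicate 2 (322), dsMi-2 replicate 2 (296) or dsMi-2 replicate 3 (292). For Ush-B the count was 0 with pseudocount 0.5, the filter of 20, upper-quartile scaling, no trend, edgeR and the term for replicates 1 and 2 against 3 and 4. Values of few reads, Spn88Eb outside dsMi-2 and Spn100A, are limited by depth. Leaving out 1 dsMi-2 library, chosen after seeing the data, gave ratios of Spn88Eb reads of 49.3 to 103 over dsEGFP and 292 to 611 over dsUsh. Causes were not tested.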
